A study of Rattus norvegicus with 9 samples.

Results

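A set of 38 genes of autophagy and mitophagy was followed in rat blood and in 2 regions of the brain, the hippocampus (HC) and the prefrontal cortex (PFC). The genes were chosen by their role, from the ULK complex that starts the process to the lysosomal proteins that end it, and each was read from the probe set annotated with that gene alone (for genes with several, the one with the highest mean over all arrays). Of the 38, 35 had such a probe set, among 14506 genes named in this way on the array. Ambra1 shared its probe set with other symbols and Atg4a and Atg4d had no probe set under their symbols in the annotation used, so these 3 were not analysed here.

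The rats were untreated males of the Wistar strain, and their total RNA was read on 9 Rat Gene 1.0 ST arrays. The arrays carry the animal numbers 2, 5 and 7, and each rat gave 1 array of each tissue. Blood was whole blood drawn into tubes that stabilize RNA, and HC and PFC were punched from frozen sections, so all samples are mixtures of cells. Blood RNA and brain RNA were isolated with different kits, so tissue and isolation method cannot be told apart.

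Autophagy encloses part of the cytoplasm in a double membrane and delivers it to the lysosome. The ULK kinases and the class III PI3-kinase complex start the membrane, conjugation enzymes attach small proteins of the ATG8 family (the LC3 and GABARAP proteins) to it, and receptors tether cargo to these proteins. Mitophagy is the same process aimed at mitochondria: a maturing red cell loses its mitochondria in this way through the receptor Bnip3l (also called Nix), whereas neurons, which do not divide, rely on autophagy for turnover along the axon.

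Values are log2 expression values that the authors had computed with RMA, which corrects, normalizes and summarizes the probes of a probe set. A level of one probe set was not compared with that of another. A difference is given on the log2 scale with its standard error (SE) as brain minus blood, where brain is the mean of HC and PFC, unless other tissues are named. A difference was called when its adjusted p in limma, taken over 16884 probe sets, was below 0.05. The SE and p rest on a spread per probe set that is shared by all tissues. Blood varied more than brain (median SD of the genes 0.168, against 0.032 in HC and 0.0567 in PFC). For genes that vary in blood, the SE can therefore understate the variation between rats. The array includes 1298 probe sets for receptors of smell, taste and pheromones, and their 95th percentile (5.53 in blood, 4.88 in HC and 4.85 in PFC) was used as the limit of background. All 35 genes had a mean above this limit in every tissue. The study called a gene present from a mean above 6.2 and a detection p, and only the first was applied here. By the mean alone, 33 were present in blood, 34 in HC and 34 in PFC. Atg10 was below 6.2 in every tissue and Bnip3 in blood.

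The tissue labels were checked against marker genes. The mean RMA value over 11 erythroid markers was 11.70 to 12.02 in blood, 6.21 to 6.39 in HC and 6.55 to 6.78 in PFC, and that over 11 neuronal markers was 5.13 to 5.29 in blood and 10.99 to 11.11 in both brain regions. All 11 erythroid markers were lower and all 11 neuronal markers were higher in brain. Of the erythroid markers 9 still lay above the background limit in each brain region. Neutrophil, T cell, B cell, monocyte and platelet markers were lower in brain in 9, 8, 4, 8 and 5 of the 9, 8, 4, 8 and 5 tested, and astrocyte and oligodendrocyte markers were higher in 7 of 7 and 6 of 6. Microglial markers did not separate the tissues: of 4 tested, 1 was higher and 2 were lower in brain. In such mixtures fewer cells of a type and less RNA per cell cannot be told apart.

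Of the 34 genes past the filter (a mean above 6.2 in at least 1 tissue), 17 were higher in brain, 10 were lower and 7 were not called. These are 50.0% and 29.4% of the genes, against 48.8% and 37.4% of all probe sets tested, so the shares were near or below the background and are no result about these genes as a group. The absolute difference had a median of 0.62 over the 35 genes and 0.97 over all probe sets tested. The signed difference had a median of 0.15 over the 35 genes and 0.22 over all probe sets tested. The values of blood and brain did not overlap in 26 of 35 genes, or 74.3%, against 79.6% of all probe sets tested. The most extreme differences belonged to the mitophagy receptors, the ATG8 family and the protease Atg4c.

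The split of higher and lower genes depended on the scaling of the arrays. When the arrays were aligned on the probe sets present in all 3 tissues, the median of all probe sets tested moved from 0.22 to -0.12, and 11 genes were higher and 16 lower. On a housekeeping panel of 13 genes it moved to 0.07, with 16 genes higher and 10 lower. Under the alignment on shared probe sets the calls of Atg4b, Atg9a, Lamp2, Nbr1, Pik3c3 and Uvrag as higher in brain were lost, and Atg3, Atg5, Atg12, Atg13, Map1lc3a and Sqstm1 were called lower. The other 21 calls were kept. The values below are relative to the scaling that was deposited.

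**Figure D1:**
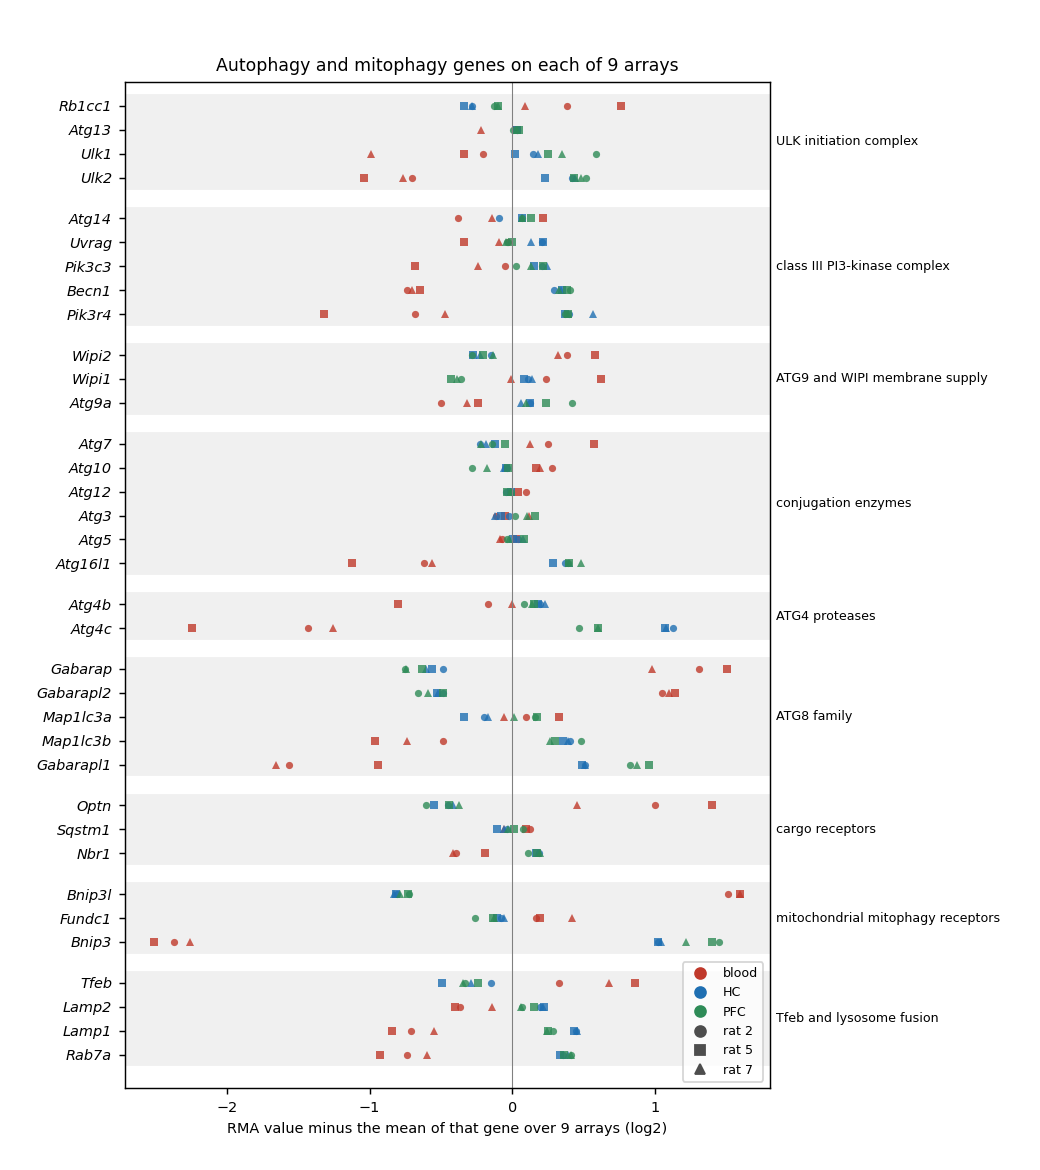
RMA value of each gene on each of the 9 arrays minus that gene's mean over the arrays (log2, x axis), with genes in rows grouped by role; colour is the tissue and shape the rat. Blood points of Bnip3l, Gabarap and Gabarapl2 lie right of the brain points and those of Bnip3, Atg4c and Gabarapl1 lie left, and blood points are spread more widely (median SD 0.168) than those of HC (0.032) or PFC (0.0567).

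The mitochondrial receptors went in opposite directions. Bnip3l, the receptor that removes mitochondria from maturing red cells, had RMA values of 13.03, 13.12 and 13.11 in blood of rats 2, 5 and 7, of 10.71, 10.70 and 10.69 in HC, and of 10.80, 10.79 and 10.73 in PFC. Every blood array was above every brain array. The difference was -2.35 ± 0.0645 (SE, n = 3 rats, adjusted p = 4.16e-10), a level 5.10-fold lower in brain.

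Bnip3, the related receptor that is induced by low oxygen in many cells, had RMA values of 5.98, 5.84 and 6.09 in blood, 9.37, 9.37 and 9.39 in HC, and 9.80, 9.74 and 9.57 in PFC. The groups did not overlap, here with brain above blood. The difference was 3.57 ± 0.0836 (SE, n = 3 rats, adjusted p = 1.55e-10), or 11.9-fold. The mean in blood, 5.97, lay below 6.2 and near the background limit of 5.53, so the size of this difference is uncertain. A second Bnip3 probe set read 5.86, 4.71 and 5.50 in blood, where only the array of rat 2 was above the background limit, 9.59 to 9.70 in HC and 9.94 to 10.09 in PFC, and it differed in the same direction. RefSeq lists 8 Bnip3 pseudogenes and 1 Bnip3l pseudogene in the rat, and whether their transcripts reach these probes was not tested.

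Fundc1, a receptor of the outer mitochondrial membrane, had RMA values of 8.61, 8.64 and 8.86 in blood, 8.37, 8.34 and 8.39 in HC, and 8.18, 8.31 and 8.32 in PFC. Blood was again above brain without overlap, but the difference was small at -0.39 ± 0.0797 (adjusted p = 0.00109). Thus 2 of the 3 mitophagy receptors were higher in blood and 1 in brain, against 37.4% and 48.8% of all probe sets tested.

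The erythroid markers were higher in blood, as Bnip3l was. Between the brain regions 3 of 11 erythroid markers were called lower in HC than in PFC in the fit over all arrays, among them the beta globins Hbb (-0.97 ± 0.197, adjusted p = 0.0123) and Hbb-b1 (-1.01 ± 0.221, adjusted p = 0.0182), and the HC minus PFC difference of Bnip3l was -0.07 (adjusted p = 0.75). In a limma fit of the 6 brain arrays alone, 5 of the 11 were lower in HC and 1 was higher, against 13.1% and 12.7% of probe sets. Bnip3l was not called there either (adjusted p = 0.268). The part of red cell precursors in the blood levels of these receptors was not tested.

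**Figure D2:**
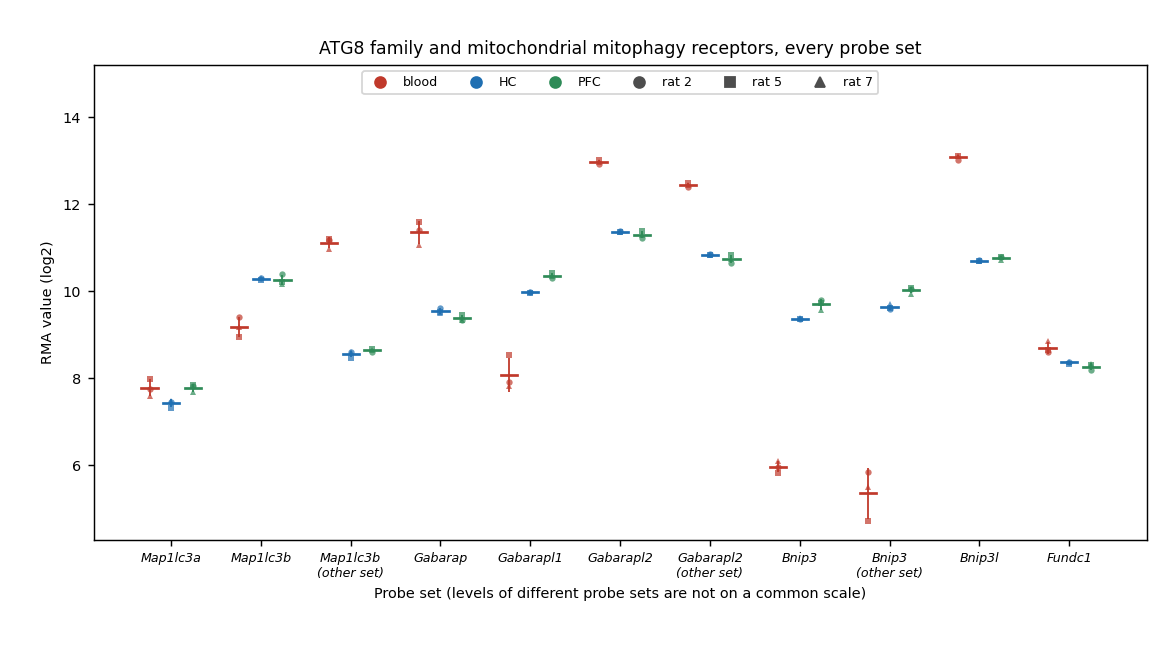
RMA values (log2, y axis) of every probe set of the ATG8 family and the 3 mitochondrial receptors on each array, coloured by tissue, with the tissue mean as a horizontal bar and the SD of 3 rats as a vertical bar. Bnip3l, Gabarap and both Gabarapl2 probe sets were higher in blood and Bnip3 and Gabarapl1 higher in brain, while the 2 Map1lc3b probe sets ran in opposite directions.

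The ATG8 family also held genes on both sides. These proteins are attached to the lipid of the growing membrane and bind the receptors. Of 5 members, 2 were higher in brain, 2 were lower and 1 was not called. The shares over all probe sets tested were 48.8% and 37.4%, so these counts are no result about the family. Map1lc3b is counted as higher, but its direction depends on the probe set. Gabarap had RMA values of 11.40, 11.60 and 11.07 in blood, 9.61, 9.53 and 9.49 in HC, and 9.35, 9.46 and 9.35 in PFC. All blood arrays were above all brain arrays, with a difference of -1.89 ± 0.11 (adjusted p = 8.33e-08) or 3.71-fold.

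Gabarapl2, also known as GATE-16, had RMA values of 12.93, 13.02 and 12.98 in blood, 11.39, 11.35 and 11.36 in HC, and 11.22, 11.39 and 11.29 in PFC. It too was higher in blood without overlap, by 3.12-fold (-1.64 ± 0.0691, adjusted p = 7.66e-09). This probe set is not annotated with a RefSeq mRNA, and a second one that is gave the same difference of -1.64. Whether the 2 probe sets read the gene independently was not tested. Gabarapl1 ran the other way, with 7.91, 8.54 and 7.82 in blood, 9.99, 9.96 and 9.99 in HC, and 10.30, 10.43 and 10.35 in PFC. Its values did not overlap either, and brain was 4.24-fold higher (2.08 ± 0.143, adjusted p = 2.9e-07). Thus the GABARAP genes lay on both sides of the comparison. RefSeq lists 3 pseudogenes of Gabarap and 3 of Gabarapl2, and whether their transcripts reach these probes was not tested.

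Of the LC3 genes, Map1lc3b had RMA values of 9.42, 8.95 and 9.17 in blood, 10.31, 10.27 and 10.30 in HC, and 10.39, 10.20 and 10.17 in PFC on the probe set with the higher mean, which is annotated with its RefSeq mRNA. Brain was higher there, by 1.09 ± 0.105 (adjusted p = 4.1e-06). A second probe set under the same symbol, annotated with a cDNA only, read 11.18, 11.20 and 10.97 in blood, 8.62, 8.47 and 8.60 in HC, and 8.61, 8.68 and 8.66 in PFC. On this probe set the sign was the opposite, -2.51 ± 0.0789 (adjusted p = 1.03e-09), and the mean of both gave -0.71 (adjusted p = 1.1e-05). The direction for Map1lc3b therefore depends on the probe set, and RefSeq lists 2 pseudogenes of this gene.

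Map1lc3a, the other LC3 gene, had RMA values of 7.76, 7.99 and 7.61 in blood, 7.47, 7.33 and 7.49 in HC, and 7.83, 7.84 and 7.68 in PFC. The tissues overlapped and its difference of -0.18 was not called (adjusted p = 0.105). It was called lower in brain without the blood array of rat 7 (-0.27, adjusted p = 0.022).

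The 2 ATG4 proteases on the array, which trim the ATG8 proteins before they are attached and later release them, were both higher in brain. So were 48.8% of all probe sets tested. Atg4c had RMA values of 6.61, 5.81 and 6.79 in blood, 9.17, 9.12 and 9.13 in HC, and 8.52, 8.64 and 8.64 in PFC. The groups were far apart although blood of rat 5 lay well below that of rats 2 and 7. The difference was 2.47 ± 0.183 (adjusted p = 5.29e-07) or 5.53-fold, and in rats 2, 5 and 7 it was 2.23, 3.08 and 2.10. Atg4b differed by 0.49 ± 0.151 (adjusted p = 0.0119), with 0.31, 0.97 and 0.19 in rats 2, 5 and 7. Its difference was not called when the arrays were aligned on shared probe sets (0.15, adjusted p = 0.289).

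Of the enzymes that attach the ATG8 proteins 5 were tested, of which 1 was higher in brain, 1 was lower and 3 were not called. Over all probe sets tested 48.8% were higher and 37.4% lower, and counts this small are no result about the role. Atg16l1, which brings the conjugation complex to the membrane, was higher in brain (1.15 ± 0.12, adjusted p = 7.43e-06), with 6.69 to 7.25 in blood and 8.10 to 8.29 in both brain regions. Atg7, the E1-like enzyme that activates the ATG8 proteins and Atg12, was lower in brain (-0.47 ± 0.102, adjusted p = 0.00149). Atg3, Atg5 and Atg12, the E2-like enzyme and the partners of Atg16l1, were within 0.07 of 0 in either direction and were not called. With the arrays aligned on shared probe sets, Atg3 and Atg5 changed sign and were called lower in brain (-0.31, adjusted p = 0.00317, and -0.27, adjusted p = 0.0081), and Atg12 was called lower too (-0.40, adjusted p = 0.000305). Atg10, the enzyme that joins Atg12 to Atg5, was at 5.83 to 5.94 in blood and 5.38 to 5.63 in the brain regions, below the filter, and was not tested.

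**Figure D3:**
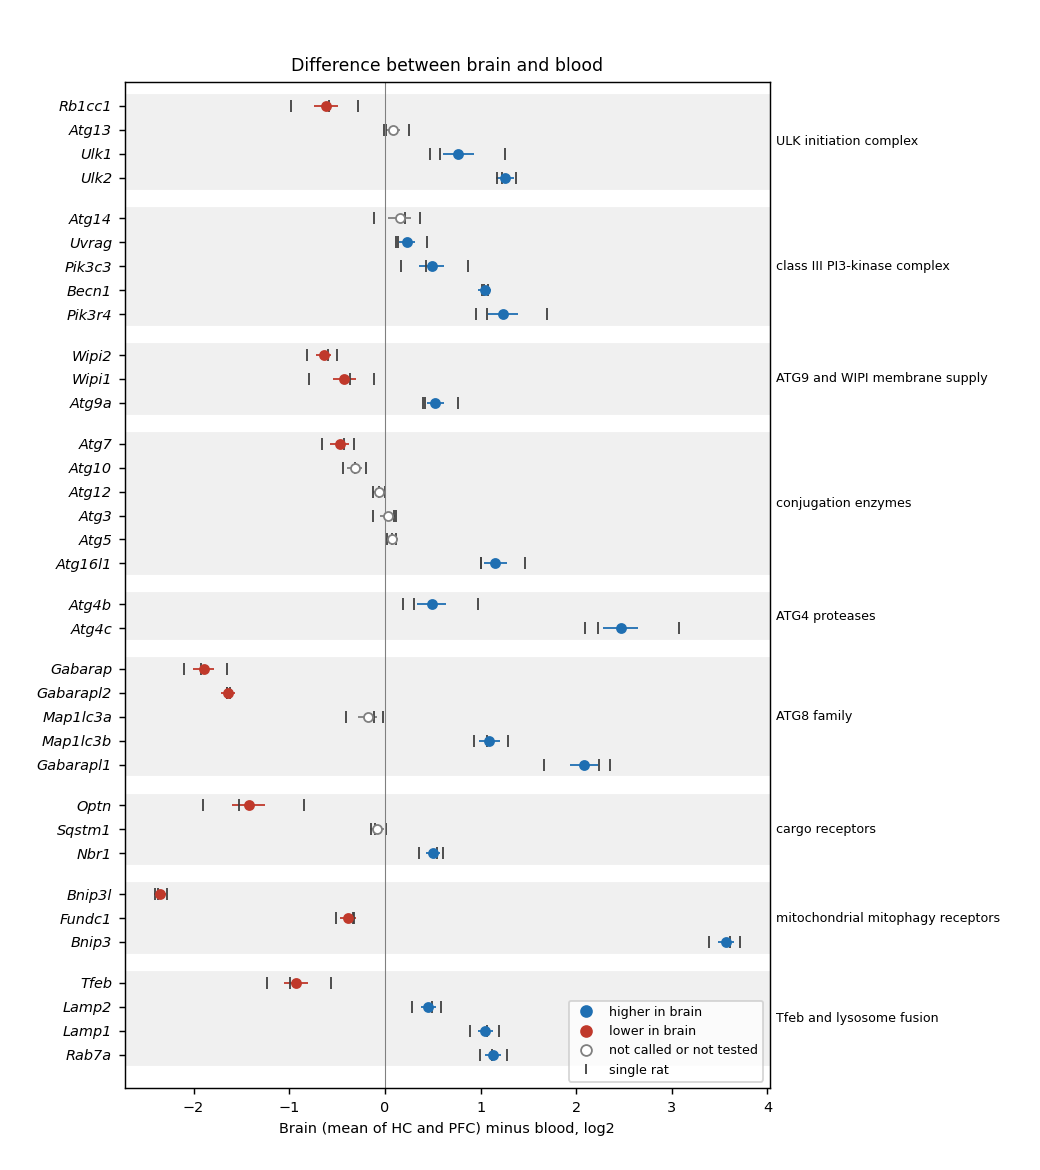
Brain minus blood difference (log2, x axis) of the 35 genes grouped by role, with the SE of the fit as a bar and each of the 3 rats as a tick; filled points were called higher (blue) or lower (red) in brain. The differences run from -2.35 for Bnip3l to 3.57 for Bnip3, and most roles hold genes on both sides of 0.

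In the ULK complex, the kinases Ulk1 and Ulk2 were higher in brain (0.77 ± 0.162, adjusted p = 0.0013, and 1.25 ± 0.0934, adjusted p = 5.54e-07). Their scaffold Rb1cc1, also called FIP200, was lower (-0.62 ± 0.126, adjusted p = 0.00103), and its second probe set was lower as well (-1.46 ± 0.149, adjusted p = 6.57e-06). Atg13, which links the kinase to the scaffold, was not called (0.08, adjusted p = 0.335) and turned to -0.25 (adjusted p = 0.0211) with the arrays aligned on shared probe sets.

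The class III PI3-kinase complex makes the lipid that marks the new membrane. Of its 5 members on the array 4 were higher in brain, against 48.8% of all probe sets tested, and none was lower. On shared probe sets 2 of the 5 were higher. Becn1, the scaffold beclin, had RMA values of 7.84, 7.93 and 7.88 in blood and 8.87 to 8.98 in the brain regions, a difference of 1.04 ± 0.0651 (adjusted p = 1.45e-07). Pik3r4, the regulatory subunit, differed by 1.24 ± 0.159 (adjusted p = 3.77e-05) and Pik3c3, the kinase itself, by 0.49 ± 0.127 (adjusted p = 0.00466), a call that was lost on shared probe sets (0.15, adjusted p = 0.208). Uvrag, the subunit of the complex that acts on endosomes, was only just called (0.23 ± 0.0822, adjusted p = 0.0232) and its groups overlapped. Its call was lost when rat 5 or rat 7 was left out (adjusted p = 0.16 and 0.0621), and aligned on shared probe sets it was -0.10 (adjusted p = 0.181). Atg14, the subunit that directs the complex to autophagy, was not called (0.15, adjusted p = 0.246), but was without the blood array of rat 5 (0.31, adjusted p = 0.00602).

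Of the proteins that supply membrane and read the lipid, Atg9a was higher in brain (0.53, adjusted p = 0.000345) and Wipi2 lower (-0.64 ± 0.0814, adjusted p = 3.37e-05). The call of Atg9a was lost on shared probe sets (0.19, adjusted p = 0.104). Wipi1 was lower in brain (-0.42 ± 0.121, adjusted p = 0.00789), with overlapping values: 8.16, 8.54 and 7.91 in blood, 8.03, 8.00 and 8.06 in HC, and 7.56, 7.49 and 7.53 in PFC. HC values lay within the range of blood, and PFC values lay below both. Its call was lost without rat 2 or rat 5 (adjusted p = 0.0578 and 0.0567).

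In the scaling as deposited, the cargo receptors each behaved differently. Optn, which binds ubiquitin on mitochondria and bacteria, was lower in brain (-1.43 ± 0.172, adjusted p = 2.31e-05), with 8.95, 9.35 and 8.40 in blood and 7.34 to 7.57 in the brain regions. The differences within rats 2, 5 and 7 were -1.53, -1.90 and -0.85. Nbr1 was higher in brain (0.50, adjusted p = 0.000111), a call that was lost on shared probe sets (0.17, adjusted p = 0.101). Sqstm1, the receptor p62, was nearly level, with 10.81 to 11.00 in blood and 10.77 to 10.95 in brain, and its difference of -0.08 was not called (adjusted p = 0.323). Aligned on shared probe sets, Sqstm1 was called lower in brain (-0.41, adjusted p = 0.000743).

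At the lysosome, the transcription factor Tfeb, which switches on lysosomal and autophagy genes, was lower in brain (-0.93 ± 0.122, adjusted p = 4.43e-05), with 7.13, 7.67 and 7.48 in blood, 6.65, 6.31 and 6.51 in HC, and 6.47, 6.56 and 6.46 in PFC. The small GTPase Rab7a, which directs fusion with the lysosome, and the membrane proteins Lamp1 and Lamp2 were higher in brain. Rab7a differed by 1.13 ± 0.083 (adjusted p = 4.98e-07), Lamp1 by 1.05 ± 0.0784 (adjusted p = 5.63e-07) and Lamp2 by 0.45 (adjusted p = 0.000318), so the factor and these genes lay on opposite sides of the comparison. The call of Lamp2 was lost on shared probe sets (0.12, adjusted p = 0.133).

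Tfeb binds the letters CACGTG (an E-box), and the promoters of 32 of the 38 listed genes were found in the RefSeq table of build GRCr8 (300 bases, of which 250 lie before the start). CACGTG, which reads the same on both strands, was present in 5 of 32, or 15.6%, against 6.42% of all 33469 promoters, and the longer TCACGTGA, which contains it, in 2 (Atg3 and Lamp1) against 0.78%. Lamp1 had 5 matches, all before the start in that table, which lies inside the span that RefSeq gives for the gene, so that a longer transcript begins farther upstream. The starts of Bnip3, Atg3, Atg5 and Gabarap are at the ends of their genes. The letters AGATAA, which include the core that GATA factors bind, or their reverse complement, were found in 1 of 32 genes, Gabarap, against 11.58% of promoters. A match of letters does not show binding. Windows are shown for the genes with a match of CACGTG or AGATAA wholly before the start. The CACGTG match of Atg14 is not, so its window is left out. Each is on the strand of the gene, with the motif in capitals and 20 bases on each side or up to the start site.
Lamp1, chr16:83075076-83075266, minus strand: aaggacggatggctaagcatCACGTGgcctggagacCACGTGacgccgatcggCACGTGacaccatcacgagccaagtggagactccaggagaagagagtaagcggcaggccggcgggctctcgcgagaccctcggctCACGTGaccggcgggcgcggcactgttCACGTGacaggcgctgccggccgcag
Bnip3, chr1:203155036-203155081, minus strand: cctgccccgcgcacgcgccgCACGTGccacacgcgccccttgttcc
Atg3, chr11:69159281-69159339, minus strand: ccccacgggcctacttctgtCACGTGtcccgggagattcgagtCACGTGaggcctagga
Atg5, chr20:49380796-49380834, plus strand: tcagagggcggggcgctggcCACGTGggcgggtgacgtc
Gabarap, chr10:55213260-55213305, plus strand: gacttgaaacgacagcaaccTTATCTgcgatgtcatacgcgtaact
Of the genes shown, Lamp1 and Bnip3 were higher in brain, Gabarap was lower, and Atg3 and Atg5 were not called.

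HC and PFC were each compared with the same 3 blood arrays, so the contrasts share their controls. In HC, 17 genes were higher and 10 lower than in blood, against 47.6% and 36.3% of all probe sets tested, and in PFC 16 were higher and 10 lower, against 47.3% and 36.7%. Map1lc3a was called lower than blood in HC (-0.36, adjusted p = 0.0132) and not in PFC (0.00, adjusted p = 0.973), and Wipi1 was called lower in PFC (-0.67, adjusted p = 0.00121) and not in HC (-0.17, adjusted p = 0.272). Uvrag was called higher than blood in HC (0.34, adjusted p = 0.00741) and not in PFC (0.12, adjusted p = 0.245).

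Between HC and PFC none of the 34 genes was called in the limma fit over all 9 arrays, where 4.51% of probe sets were higher and 4.66% lower in HC, and 6 genes had an unadjusted p below 0.05. That fit estimates the spread over all 3 tissues. In a limma fit of the 6 brain arrays alone, 4 genes were higher in HC and 4 lower, against 12.7% and 13.1% of probe sets. Without the blood array of rat 5 the fit of the remaining arrays called 3 higher and 3 lower. The shares over all probe sets were not computed for that fit, so these counts are no result about these genes.

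In the 6 brain arrays Atg4c (0.54 ± 0.0521, adjusted p = 0.000539) and Wipi1 (0.50 ± 0.0431, adjusted p = 0.00031) were higher in HC, followed by Uvrag (0.21 ± 0.0446, adjusted p = 0.0135) and Lamp1 (0.18 ± 0.0396, adjusted p = 0.0155). Gabarapl1 (-0.38 ± 0.0487, adjusted p = 0.00172), Map1lc3a (-0.35 ± 0.0677, adjusted p = 0.0101), Bnip3 (-0.33 ± 0.0662, adjusted p = 0.0122) and Rb1cc1 (-0.19 ± 0.0413, adjusted p = 0.0156) were lower in HC. With rat as a replicate block in the fit of the brain arrays, these 8 were called again, and with a fixed block Ulk1 was also called lower in HC. In the fit over all arrays the same differences had an adjusted p of 0.191 for Atg4c, 0.0547 for Wipi1, 0.07 for Bnip3 and 0.0934 for Map1lc3a. It was 0.24 for Gabarapl1, 0.259 for Uvrag, 0.329 for Lamp1 and 0.602 for Rb1cc1. The calls against blood in only 1 region were thus not shown to differ between the regions in that fit.

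Cell type markers also differed between the regions. For oligodendrocytes the mean RMA value was 10.05 to 10.36 in HC and 9.10 to 9.69 in PFC, and 5 of 6 were called higher in HC in the fit over all 9 arrays and 6 of 6 in that of the brain arrays. The astrocyte mean was 10.55 to 10.60 in HC and 10.10 to 10.15 in PFC, with 1 of 7 called higher in HC in the first fit and 5 of 7 in the second. The neuronal mean was 10.99 to 11.07 in HC and 10.99 to 11.11 in PFC, with none of 11 called in the first fit and with 4 higher and 3 lower in HC in the second. The part of neurons and glial cells in the differences of Wipi1, Atg4c and the other genes was not tested.

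**Figure D4:**
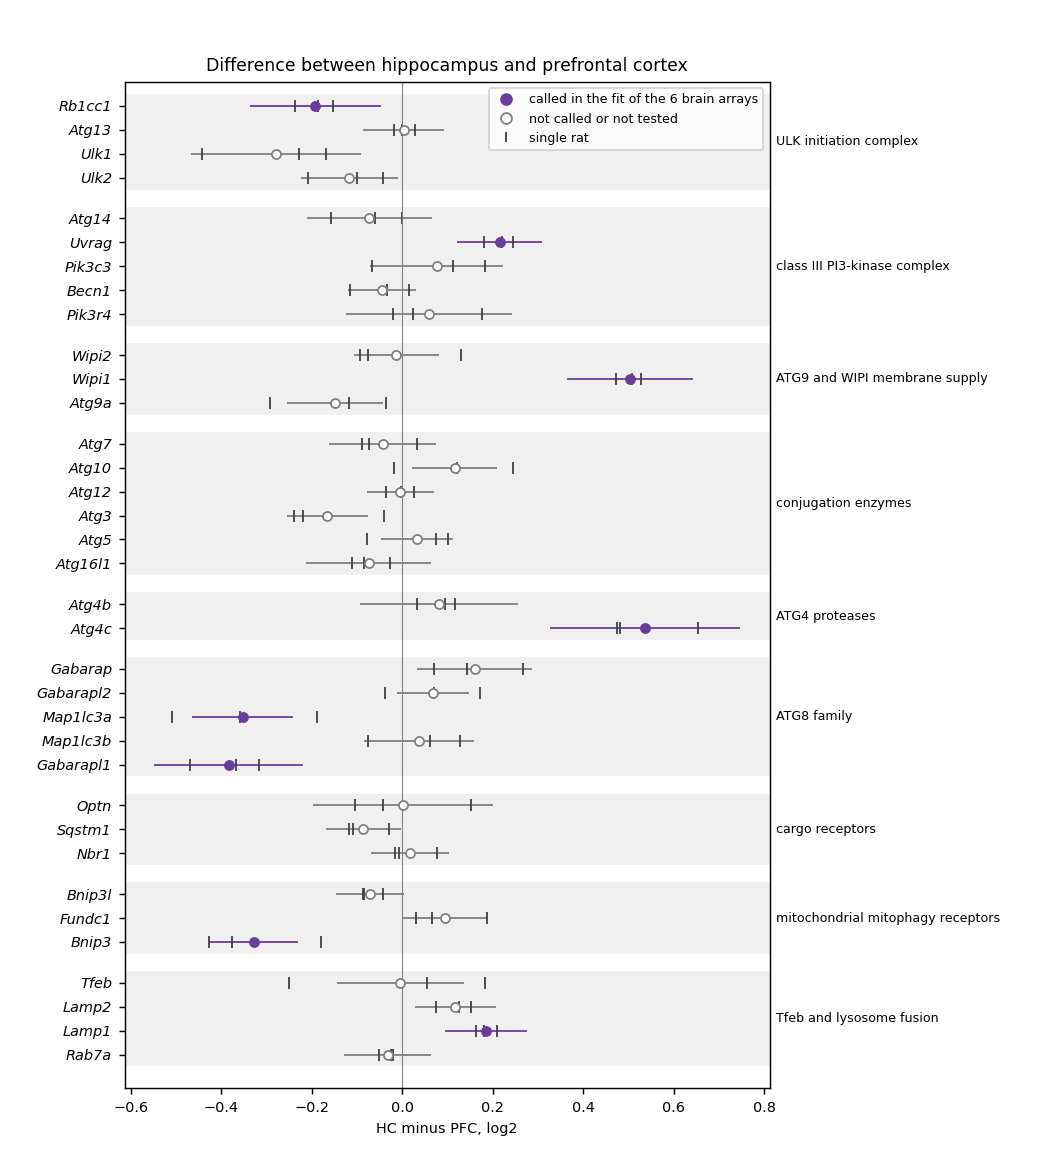
HC minus PFC difference (log2, x axis) of the 35 genes grouped by role, with each rat as a tick and the SE of the fit over all 9 arrays as a bar; filled points were called in the fit of the 6 brain arrays. Wipi1 and Atg4c lie farthest to the right, at 0.50 and 0.54, and Gabarapl1, Map1lc3a and Bnip3 farthest to the left, at -0.33 to -0.38.

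The values of the 3 rats varied mainly in blood. Some values repeat exactly between arrays, which lowers the SD. Atg13, for example, read 8.3593 on all 3 HC arrays and on the blood arrays of rats 2 and 5. Atg4c read 8.6449 and Rb1cc1 8.9119 on the PFC arrays of both rats 5 and 7. Both genes were called in the fit of the brain arrays. The origin of these ties was not tested. The SD of the 3 rats had a median over the 35 genes of 0.168 in blood, 0.032 in HC and 0.0567 in PFC, and the highest in blood was that of Atg4c at 0.524. The blood array of rat 5 was the highest or the lowest of the 3 in 29 of 35 genes, against 17 for rat 2 and 24 for rat 7. Where blood arrays tied, as in Atg13, the first was counted. The share over all probe sets was not computed, so these counts are no result about these genes. In the blood of rat 5 the mean over T cell markers was 8.66, against 9.25 and 9.34 in rats 2 and 7. The mean over neutrophil markers was 8.58 against 8.18 and 7.99, and that over erythroid markers 12.02 against 11.78 and 11.70. The part of this makeup in the spread of the genes was not tested. Without the blood array of rat 5, 18 genes were higher in brain than in blood and 10 lower.

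Other genes of the pathway gave the surroundings of these results. Of 16 other autophagy genes tested 6 were higher and 6 lower in brain, against 48.8% and 37.4% of all probe sets tested. The median of these genes was 0.07, against 0.22 over all probe sets tested. Among them Ncoa4, the receptor that delivers ferritin to the lysosome, had RMA values of 12.60, 12.73 and 12.63 in blood and 9.07 to 9.20 in the brain regions (-3.54 ± 0.0675, adjusted p = 4.83e-11). Wdr45, a WIPI protein, was also lower (-3.22 ± 0.0688, adjusted p = 9.16e-11). Vps41 and Vps39, subunits of the complex that tethers membranes to the lysosome, were higher in brain (3.08 ± 0.105 and 2.09 ± 0.174, adjusted p = 1.78e-09 and 1.33e-06). Aligned on shared probe sets the split of this list was 4 higher and 9 lower.

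Of 15 genes of the Pink1-parkin pathway and other mitophagy genes, 10 were higher and 3 lower in brain (median 0.45). The shares over all probe sets tested were 48.8% and 37.4%, with a median of 0.22. Aligned on shared probe sets, 7 genes of this list were higher and 5 lower. Pink1, the kinase that marks damaged mitochondria, was lower (-1.22 ± 0.072, adjusted p = 9.59e-08), as was the receptor Bcl2l13 (-1.70 ± 0.109, adjusted p = 1.79e-07). Vdac1, a channel of the outer mitochondrial membrane that is modified by parkin, was higher (3.46 ± 0.134, adjusted p = 4.17e-09), and so was Nipsnap1 (2.57 ± 0.168, adjusted p = 1.98e-07).

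Of 20 genes of mTORC1 and AMPK, the kinases that hold back and release autophagy, 15 were higher and 4 lower in brain (median 0.77), against 48.8% higher and 37.4% lower and a median of 0.22 over all probe sets tested. The counts were 13 and 4 on the housekeeping panel, and 12 and 5 on shared probe sets with a median of 0.44. Rragd, a GTPase that brings mTORC1 to the lysosome, was higher (2.43 ± 0.0842, adjusted p = 1.92e-09). The AMPK subunit Prkaa2 read 4.57, 5.65 and 4.90 in blood, where the mean and 2 of 3 arrays lay below the background limit, and 7.58 to 8.12 in the brain regions, so no size is given for its difference. Prkab1, another AMPK subunit, was lower in brain (-2.04 ± 0.0816, adjusted p = 5.23e-09). Stk11, the kinase LKB1 that activates AMPK, was lower too (-1.22 ± 0.0894, adjusted p = 5.02e-07).

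Of the transcription factors that act beside Tfeb, 4 in the TFE and FOXO families were tested. None was called higher and 3 were lower in brain, against 48.8% and 37.4% of all probe sets tested. The 3 were Foxo4 (-2.61 ± 0.144, adjusted p = 5.61e-08), Foxo3 (-1.50 ± 0.0907, adjusted p = 1.12e-07) and Foxo1 (-1.17 ± 0.109, adjusted p = 3.16e-06). Foxo1 also differed between the regions in the fit over all arrays (HC minus PFC 0.79 ± 0.126, adjusted p = 0.00338).

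The V-ATPase is the proton pump of the lysosome. Of 16 subunits tested, 15 were higher in brain and 1 lower, against 48.8% and 37.4% of all probe sets tested. Their median was 1.56, against 0.22 over all probe sets tested, and the counts were the same under both other scalings. Atp6v1a and Atp6v1d led with 3.47 ± 0.0814 and 2.97 ± 0.0772 (adjusted p = 1.55e-10 and 2.9e-10), and Atp6v0e1 was the subunit that was lower (-1.509 ± 0.0688, adjusted p = 1.37e-08). The pump also acidifies synaptic vesicles. Of 16 lysosomal hydrolases other than cathepsins 9 were higher and 5 lower (median 0.58), near the 48.8% and 37.4% of all probe sets tested, and on shared probe sets 8 and 6 (median 0.24). They ranged from Arsb (3.05 ± 0.184, adjusted p = 1.13e-07) and Gaa (2.41 ± 0.0802, adjusted p = 1.51e-09) to Man2b1 (-1.36 ± 0.0846, adjusted p = 1.38e-07) and Hexa (-1.06 ± 0.146, adjusted p = 6.37e-05).

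**Figure D5:**
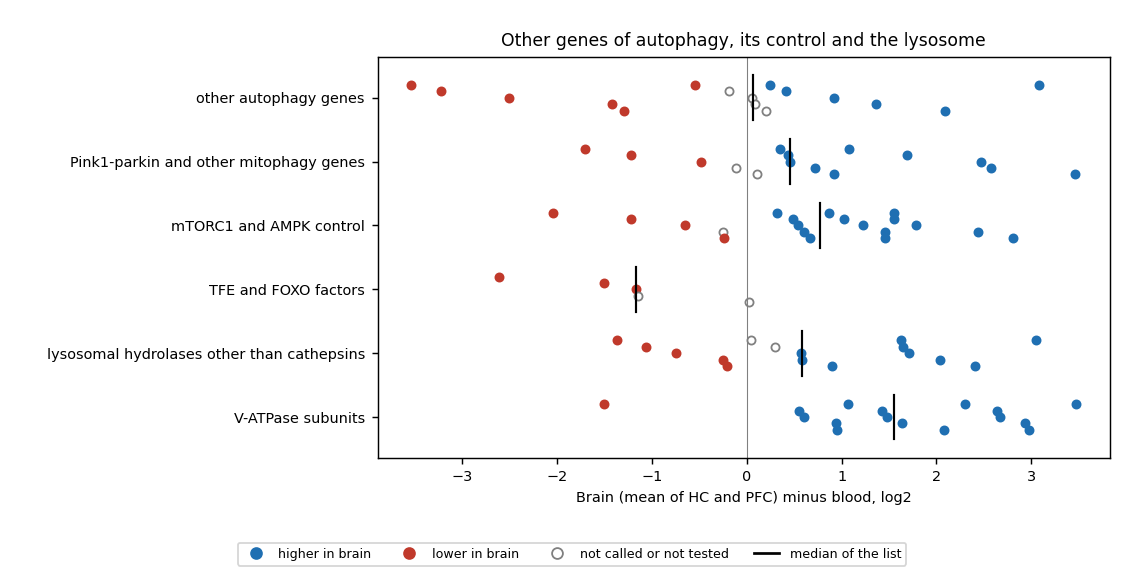
Brain minus blood difference (log2, x axis) of single genes in 6 lists of related genes, with the median of each list as a vertical bar; filled points were called higher (blue) or lower (red) in brain. All V-ATPase subunits but 1 lie right of 0, with a median of 1.56. The TFE and FOXO factors have a median of -1.17, which includes Tfec, a gene below the filter that was not tested.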

How the data were processed

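The authors had quantile normalized and summarized the array intensities per probe set with RMA and deposited values read as log2 (1.53 to 14.01 over 29215 probe sets, 1 without a value). The array means were 6.154 to 6.202. No aligner or build applies. Gene symbols came from the platform annotation (15310 probe sets with 1 symbol, 323 with several, 13581 with none), and 15279 were found in RefSeq GRCr8. Samples were grouped by the tissue and animal number in the labels. Depth does not apply to arrays: the number of arrays limits the precision.

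limma 3.58.1 in R 4.3.3 was run on the log2 values of 9 arrays, with tissue as a factor, no block, and Benjamini-Hochberg adjustment over 16884 probe sets with a mean above 6.2 in at least 1 tissue. With 3 arrays against 3, no exact test of a single gene was run. Arrays of 1 number come from the same animal. Same-numbered arrays correlated in their deviations from the tissue means by 0.137 to 0.287 between HC and PFC and by -0.079 to 0.052 between blood and brain. statmod 1.5.0 served for the random block, and Python 3.11.15, pandas 2.3.3 and matplotlib 3.10.9 for summaries and figures.

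The members and lists were chosen with earlier results of these data known. All members could be named. Values of every array were to be given for differences of at least 2 and for all ATG8 genes and mitochondrial receptors, and in other lists the 2 highest and 2 lowest called genes were named. Of the marker lists, only counts and means are given, with the beta globins named. Array values of other members were added after their values were seen. Alternatives were other filters, probe sets, scalings, blocks, variance models, thresholds and left-out arrays.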

Additional observations from a re-analysis of the deposited data

How the results depend on the processing

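With rat as a fixed or random replicate block (consensus correlation 0.003), 17 genes were higher and 10 lower in brain than in blood, 17 and 10 in HC, 16 and 10 in PFC, and 0 and 0 between the regions, so in the fits over all 9 arrays the pairing changed none of these counts. In the fit of the brain arrays alone, added after seeing the data, a fixed replicate block gave 4 genes higher and 5 lower in HC than in PFC and a random one 4 and 4. Aligned on shared probe sets, the counts were 11 higher and 16 lower in brain, 10 and 16 in HC, and 17 lower in PFC, with a median difference of -0.18 and 1 gene lower in HC than in PFC. By construction this scaling lowers every brain minus blood difference. Atg13 (-0.25), Atg3 (-0.31), Atg5 (-0.27) and Uvrag (-0.10) then changed sign, as did Map1lc3b (-0.71) with the mean of its probe sets. The median was 0.0073 on the housekeeping panel and 0.0825 with the mean of all probe sets of a gene. Requiring a log2 difference of at least 1 left 10 higher and 4 lower in brain, 10 and 4 in HC, and 9 and 4 in PFC. Genes higher in HC than in PFC numbered 1 with a filter of 7.2, 3 on the housekeeping panel, 1 with trend and robust moderation, and 4, with 4 lower, in the brain arrays alone. The cause of these shifts was not tested.

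Leaving out 1 rat or array gave 16 to 18 genes higher and 9 to 11 lower in brain, 15 to 18 and 9 to 12 in HC, and 14 to 17 and 9 to 10 in PFC, 0 to 3 higher and 0 to 3 lower in HC than in PFC, and a median of 0.12 to 0.18. Between the regions, without the blood array of rat 5 there were 3 and 3, without that of rat 7 there were 1 and 2, and without rat 5 there was 1 higher. The shares over all probe sets were not computed for the fits with arrays left out. Of the single brain minus blood values, 744 kept side and direction, 28 lost the call and 9 gained it, among them 4 of the 5 values that changed sign with a call. The signal over background limits Bnip3 in blood, where 1 of 2 probe sets had a mean below the limit.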
